A study of Homo sapiens with 8 samples.

Results

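The cytosolic ribosomal proteins are described here as 85 of the 18164 genes in the deposited expression table. They were chosen by symbol alone: RPL or RPS followed by a number, with an optional suffix letter or L, together with RPLP0, RPLP1, RPLP2 and RPSA. The RPS6K kinases, RPS4Y genes and read-through symbols were left out. Core subunits account for 77 of the genes, 46 in the large and 31 in the small subunit. The other 8 are paralogs named after a core gene: RPL3L, RPL7L1, RPL10L, RPL22L1, RPL26L1, RPL36AL, RPL39L and RPS27L. All 77 core genes were above 0 in every tumor, and 84 of the 85 members passed the filter on low values. The member that did not pass was RPL10L.

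The samples were 8 tumors of HCC1937, an established human cell line from a triple-negative breast cancer, a class defined by low estrogen, progesterone and HER2 receptors. The cells were injected into the inguinal mammary fat pad of NCG mice, which carry edited Prkdc and Il2rg genes and lack mature T, B and natural killer cells while keeping myeloid and stromal cells. Once tumors reached 100 to 150 mm3, mice received either NMN at 500 mg/kg/day (4 tumors) or vehicle (4 tumors). NMN is nicotinamide mononucleotide, a precursor of NAD+, and the comparison asks which tumor transcripts differ when it is supplied. All 8 tumors share this 1 line and host strain, and the sources used here give no age of the mice or length of treatment. The labels do not say that each tumor came from a separate mouse, so the p-values reflect only how much these samples vary, which may be technical. Expression is in TPM, a per-length transcript abundance scaled to the same total in every library. Levels of different genes can therefore be compared, while read depth is unknown.

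Ribosomes are built from ribosomal RNA and one set of core proteins per particle, and cells make these proteins in balanced amounts because unassembled ones are degraded. The messenger RNAs of core proteins typically begin with a C followed by an unbroken stretch of pyrimidines, the terminal oligopyrimidine or TOP tract, through which the kinase complex mTORC1 adjusts their translation by way of the binding protein LARP1. In tumors the demand for ribosomes is commonly tied to MYC and mTORC1 activity. The mTORC1 control by way of LARP1 acts largely on translation, which RNA abundance does not measure.

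The TOP-like start is a sequence feature found in most core members with a promoter window, counted below, and their choice by symbol did not use it. The windows shown run from 20 bases before to 20 bases from the annotated start of transcription (RefSeq, GRCh38.p14), written 5′ to 3′ on the gene's own strand. The longest run of C or T is in capitals. The first set holds core genes on which results below turn: RPS27 with the highest level, RPL14 with the lowest, the stalk protein RPLP0, RPS6, RPSA and RPL34. RPL39 shows an extreme case with a run of 22 bases.
RPS27 (chr1:153990742-153990781, plus strand): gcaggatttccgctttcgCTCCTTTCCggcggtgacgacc
RPL14 (chr3:40457319-40457358, plus strand): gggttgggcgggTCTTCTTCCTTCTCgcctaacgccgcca
RPLP0 (chr12:120201092-120201131, minus strand): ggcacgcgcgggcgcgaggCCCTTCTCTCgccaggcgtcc
RPS6 (chr9:19380217-19380256, minus strand): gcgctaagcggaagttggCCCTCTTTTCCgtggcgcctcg
RPSA (chr3:39406700-39406739, plus strand): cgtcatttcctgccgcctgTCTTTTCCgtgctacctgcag
RPL34 (chr4:108620556-108620595, plus strand): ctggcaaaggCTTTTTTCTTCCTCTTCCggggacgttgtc
RPL39 (chrX:119791611-119791650, minus strand): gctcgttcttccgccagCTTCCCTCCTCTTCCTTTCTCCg
The next set pairs core genes with their paralogs, since the paralogs divide on a run of at least 8 bases.
RPL36A (chrX:101390991-101391030, plus strand): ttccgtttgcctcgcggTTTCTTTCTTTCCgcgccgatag
RPL36AL (chr14:49620607-49620646, minus strand): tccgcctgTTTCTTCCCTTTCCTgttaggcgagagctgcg
RPL22 (chr1:6199576-6199615, minus strand): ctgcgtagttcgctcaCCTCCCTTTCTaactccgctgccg
RPL22L1 (chr3:170870176-170870215, minus strand): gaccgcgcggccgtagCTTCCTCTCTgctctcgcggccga
RPL26 (chr17:8383174-8383213, minus strand): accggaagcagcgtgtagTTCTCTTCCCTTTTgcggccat
RPL26L1 (chr5:172958709-172958748, plus strand): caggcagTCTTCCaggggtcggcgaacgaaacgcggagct
RPS27L (chr15:63157458-63157497, minus strand): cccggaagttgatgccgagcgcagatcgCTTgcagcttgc
RPL7L1 (chr6:42879596-42879635, plus strand): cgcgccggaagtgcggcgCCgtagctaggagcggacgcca
RPL3 and RPL11 are shown as core genes with no run of 8 bases at this start.
RPL3 (chr22:39319604-39319643, minus strand): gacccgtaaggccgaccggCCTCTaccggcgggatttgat
RPL11 (chr1:23691759-23691798, plus strand): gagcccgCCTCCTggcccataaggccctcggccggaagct

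RefSeq promoter windows matched 62 of the 77 core genes, 6 of the 8 paralogs and 14329 genes of the table. A run of at least 8 consecutive C or T bases lay in this window for 52 of 62 core genes (83.9%), against 2397 of 14329 genes (16.7%). It was present in 30 of 38 large-subunit and 22 of 24 small-subunit windows. The median longest run was 11 bases in core genes and 5 bases over all genes. Runs of at least 8 A or G bases, the same pattern on the other strand, were found in 3.23% of core windows and in 12.8% of all. A C at the start base followed by 4 pyrimidines was present in 42 core windows (67.7%) and in 4.82% of all. Translation factors, whose mRNAs are partly of the TOP class, held the 8-base run in 15 of 32 windows (46.9%), whereas the assembly factors that build ribosomes held it in 9 of 62 (14.5%). Among paralogs only RPL36AL and RPL22L1 of the 6 matched had the 8-base run. RPL22L1 alone had the C followed by 4 pyrimidines at the start (16.7% of the 6). The 10 matched core genes without the 8-base run were RPL3, RPL6, RPL11, RPL12, RPL13, RPL15, RPL32, RPL36, RPS3A and RPS4X. Of these, RPL12, RPL36 and RPS3A had the C followed by 4 pyrimidines at the start. Conversely, the counted run can lie wholly before the start, as in RPL10, RPL17 and RPS29. The 8-base run is therefore not the same as a TOP-like start. An annotated start is 1 position per gene, so a gene without the run in this window may still start elsewhere.

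**Figure D1:**
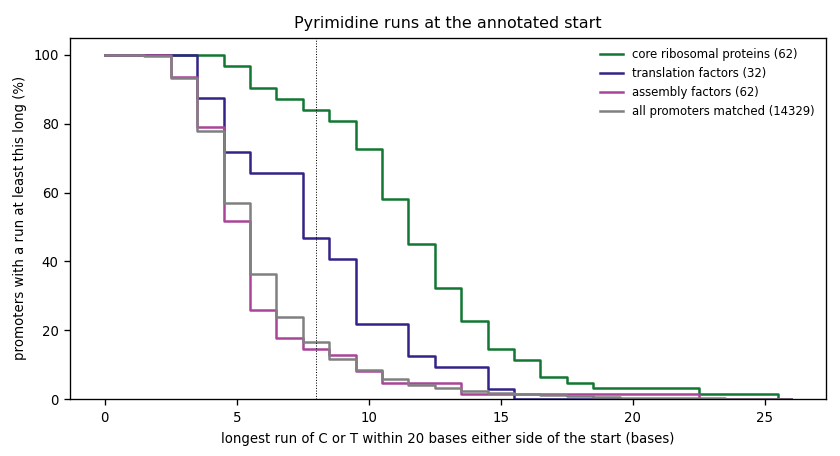
Share of promoters (y axis, %) whose longest run of C or T within 20 bases either side of the annotated start is at least the length on the x axis (bases), for core ribosomal proteins, other lists and all genes. At 8 bases, marked by the dotted line, the core genes stand at 83.9% and all genes at 16.7%.

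Other short motifs were searched in the whole promoter window of 300 bases, on both strands. CCGGAAG, the core of ETS factor motifs, was found in 33.9% of core promoters and 15.4% of all. CTTTCC was found in 46.8% and 26.7%, and it can overlap the pyrimidine run. AGATGGC, part of the YY1 motif, was found in 11.3% and 6.36%. GGGCGG, the GC box, was found in 54.8% of core promoters and 62.3% of all, and TATAAA in 8.06% and 8.24%. These matches describe letters in a window and carry no evidence of binding.

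Core ribosomal protein transcripts were among the most abundant in these tumors. Their median level, averaged over the 8 tumors, was 1621 TPM with an interquartile range of 806 to 2607 TPM. Among the 10 most abundant genes were 4 core members, with 20 among the top 50, 40 among the top 100 and 65 among the top 200. Although the ribosome holds its core proteins in near equal amounts, the RNA levels spanned 143-fold. The order began with RPS27, a small-subunit protein, at 8628 TPM, followed by RPL30 at 7184, RPL35 at 6977 and RPL8 at 6449.6 TPM. The order of RPL30 (5929.9 to 8847 TPM), RPL35 (6238 to 7838 TPM) and RPL8 (5276 to 7118 TPM) changed between tumors, so it is within the spread. RPS27 (7450 to 10328 TPM) was above them in every tumor. At the other end stood RPL14 at 60.5 TPM, then RPL37A at 107, RPS23 at 156 and RPL27A at 183 TPM. RPL14 was the 1 core gene under 100 TPM, and its highest tumor (73.4 TPM) lay below the lowest tumor of RPL37A (95.1 TPM).

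Between 100 and 300 TPM lay 6 core genes, between 300 and 1000 TPM 19, between 1000 and 3000 TPM 38, and above 3000 TPM 13. The highest class included RPL41, RPS18, RPS10, RPL26, RPS2 and RPL19 besides the leading 4. The 10 highest members carried 34.2% of the core TPM. Across the 77 genes, mean log2 level had a Spearman rho of 0.045 with coding length, 0.24 with the GC content of the transcript and -0.039 with the number of annotated pseudogenes. These are descriptions across genes measured in the same libraries. GENCODE 29 lists 1133 pseudogenes named after core genes, 91 of them after RPL23A and none after RPL28. The sources used here do not say how reads shared with such copies were assigned, so the level of any single core gene is uncertain to that extent. The 52 core genes with a pyrimidine run had a median of 1605 TPM and the 10 without it 1090 TPM (60.5 to 8628 and 698 to 3067 TPM). The 15 core genes with no matched window had a higher median than either, 2173 TPM (210 to 7184 TPM).

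**Figure D2:**
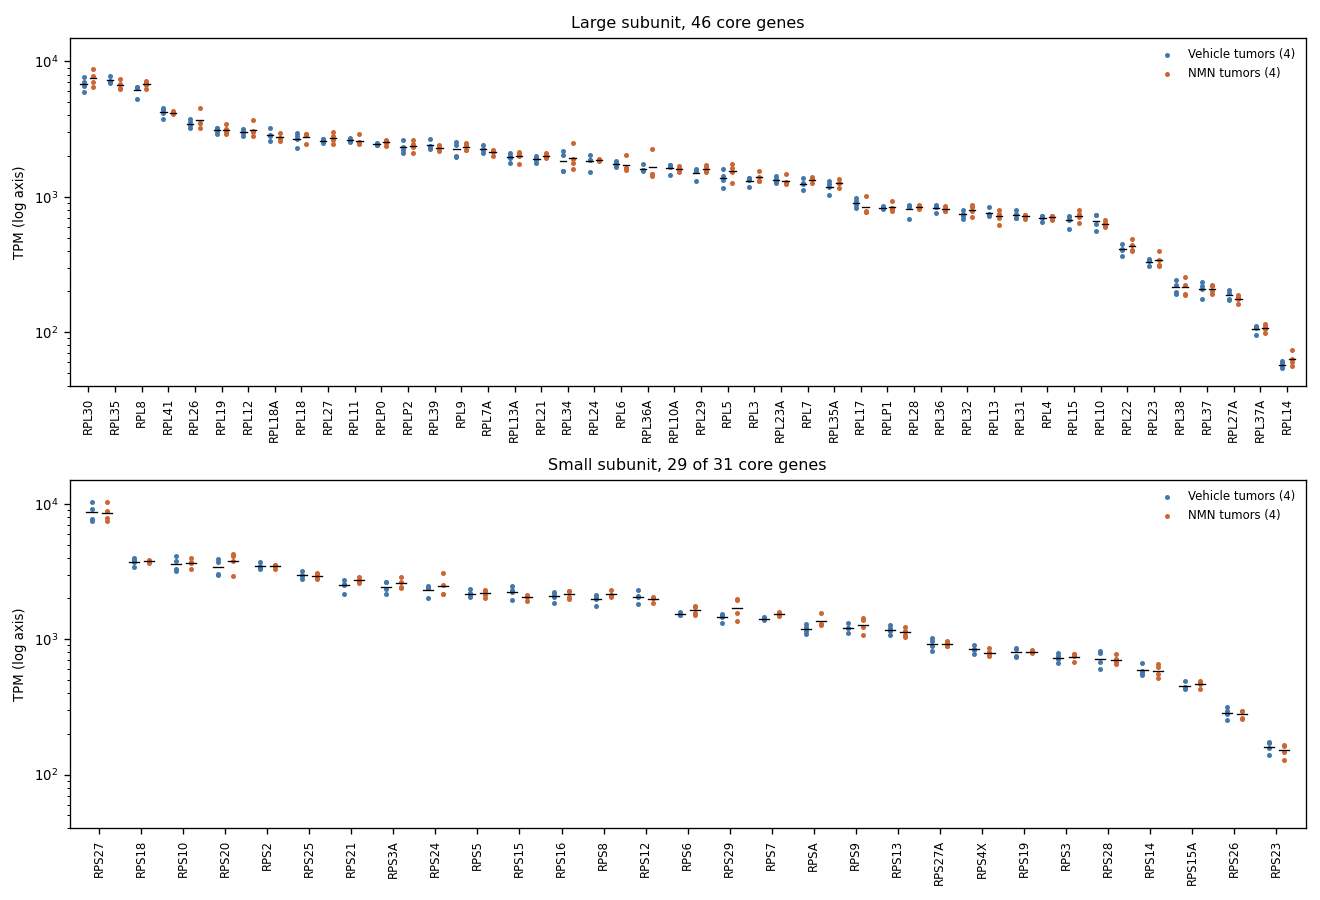
TPM (y axis, log scale) of 75 of the 77 core ribosomal protein genes, ordered by level, with 1 point per tumor, colors for the 4 NMN and 4 Vehicle tumors and a dash at each group mean. Genes span from RPL14 at a mean of 60.5 TPM to RPS27 at 8628 TPM, while the groups overlap for every gene drawn except RPS7.

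Summed over members, core ribosomal protein RNA made up 15.5, 16.0, 14.6 and 13.9% of TPM in Vehicle tumors 1 to 4 and 15.5, 16.4, 15.2 and 14.3% in NMN tumors 1 to 4. The groups overlapped, with 15.4% ± 0.866 under NMN and 14.99% ± 0.958 under vehicle (SD, n = 4 each). From high to low, the order of tumors was 2, 1, 3 and 4 in both groups, which these SDs do not use. The difference of 0.359 percentage points was smaller than either SD, and it ran from -0.019 to 0.711 points when single tumors were left out, the lowest value being that without Vehicle 4. With the MTRNR2L genes, described at the end, taken out of the total, it was 0.082 points. Large-subunit genes held 8.82% ± 0.514 under NMN and 8.61% ± 0.491 under vehicle (SD, n = 4 each). Small-subunit genes held 6.53% ± 0.356 and 6.38% ± 0.474. The ratio of the subunits' summed TPM was nearly fixed, at 1.31 to 1.39 over the 8 tumors, with a mean of 1.35 in each group. In tumor tissue, fewer cells of a type and less RNA per cell cannot be told apart.

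No ribosomal protein gene passed the test between NMN and Vehicle tumors. By limma's moderated test with Benjamini-Hochberg adjustment over 13358 genes, 0 of the 84 tested members were called, and 0% of all genes were called. The smallest adjusted p among core genes was 0.836. At an unadjusted p under 0.05, 0 of 77 core genes and 1 of 7 tested paralogs were counted, against 6.94% of all genes. Of the core genes 49 had a higher mean under NMN and 28 a lower one, where 51% of all genes were higher. The median core log2 fold change was 0.023 on the log2(TPM + 1) scale, beside 0.0040 over all genes tested, and it changed sign to -0.011 under quantile normalization and to -0.013 without Vehicle 4. Large-subunit genes had a median of 0.025 (29 higher, 17 lower) and small-subunit genes 0.017 (20 higher, 11 lower), and these signs turned under quantile normalization and without Vehicle 4 as well, and for the small subunit without Vehicle 3 too.

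The estimates for core genes were precise relative to the rest of the table. Log2 fold changes ran from -0.14 to 0.22, with a median standard error of 0.10. The 95% intervals of all 77 genes lay within 1.5-fold in either direction, their outer bounds being -0.36 and 0.51, whereas 72.6% of all genes tested and 88.0% of genes with a mean of at least 50 TPM had such intervals. A miss of the threshold does not show equal levels, but changes beyond 1.5-fold lie outside these intervals. The coefficient of variation over the 8 tumors had a median of 7.88% in core genes (3.51 to 18.2%), 10.9% in genes of at least 50 TPM and 16.0% in all genes tested. These sets were not matched in level to the core genes, whose median was 1621 TPM. The part of level in the narrower intervals was not tested.

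**Figure D3:**
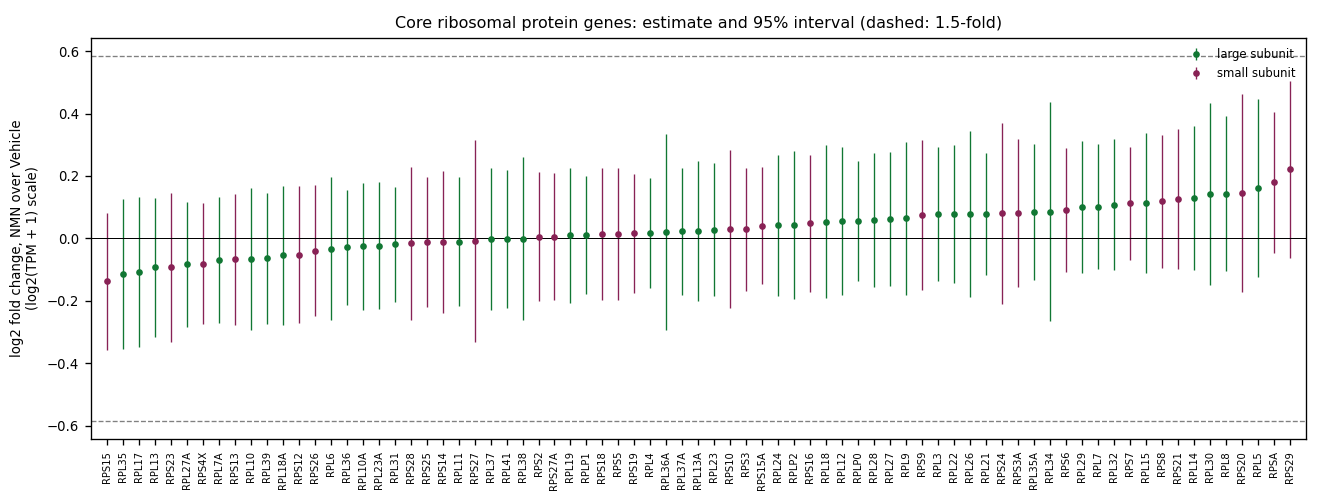
Log2 fold change of NMN over Vehicle (y axis, log2(TPM + 1) scale) for 75 of the 77 core genes, ordered by estimate, with 95% intervals from limma and 4 tumors per group. Every interval lies inside the dashed lines at 1.5-fold, and every interval includes 0.

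The 2 largest positive estimates were in small-subunit genes. RPS29, a zinc-binding protein of the small-subunit head, stood at 1307, 1544, 1509 and 1449 TPM in Vehicle tumors 1 to 4 and 1955, 1364, 1969 and 1555 TPM in NMN tumors 1 to 4. The groups overlapped, and its log2 fold change was 0.22 ± 0.13 (95% interval -0.062 to 0.51, limma adjusted p = 0.836). RPSA, the laminin receptor homolog of the small subunit, stood at 1227, 1304, 1150.3 and 1099.5 TPM in Vehicle and 1574, 1263, 1302 and 1287 TPM in NMN tumors. NMN 1 was far above the other 3 NMN tumors, which overlapped the Vehicle tumors, and the log2 fold change was 0.18 ± 0.10 (limma adjusted p = 0.836). RPS20, the third of the small subunit, had 0.15 ± 0.15, and its values ran from 2944 to 4283 TPM. Leaving out NMN 1 moved RPSA to 0.11, and leaving out NMN 2 moved RPS20 to 0.081. RPS7 was the 1 member of 84 whose groups did not overlap, where 3.05% of all genes had groups that did not. Its levels were 1453, 1439.8, 1405 and 1387 TPM in Vehicle and 1479.8, 1601, 1509 and 1557 TPM in NMN tumors, every NMN tumor above every Vehicle tumor. Its log2 fold change was 0.11 ± 0.082 (limma adjusted p = 0.903).

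Among large-subunit genes, RPL5 had the highest estimate at 0.16 ± 0.13 (95% interval -0.12 to 0.45). RPL5 and RPL11 join the smallest ribosomal RNA in a particle that also binds the ubiquitin ligase MDM2. RPL5 stood at 1437, 1155, 1616 and 1335 TPM in Vehicle and 1536, 1743, 1645 and 1271 TPM in NMN tumors. RPL11 stood at 2612, 2717, 2590.3 and 2540.1 TPM in Vehicle and 2454, 2896, 2510.3 and 2540.2 TPM in NMN tumors, with a log2 fold change of -0.011 ± 0.095. The groups overlapped for both genes. RPL8 and RPL30 came next with 0.14 ± 0.11 and 0.14 ± 0.13. Vehicle 4 was the lowest tumor for RPL8, at 5276 TPM against 6393 to 6456 TPM in the other Vehicle tumors. With 1 tumor left out the estimates were as low as 0.077 for RPL5 (without Vehicle 2), 0.072 for RPL8 (without Vehicle 4) and 0.061 for RPL30 (without NMN 2).

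The most negative estimates were no larger. RPS15, which takes part in export of the small subunit from the nucleus, stood at 2249, 2467, 2302 and 1959.9 TPM in Vehicle and 2058, 2053, 2122 and 1908 TPM in NMN tumors, overlapping, with a log2 fold change of -0.14 ± 0.10 (95% interval -0.36 to 0.082, limma adjusted p = 0.898). RPS23, a protein of the decoding center, had -0.092 ± 0.11. In the large subunit RPL35, next to the exit of the nascent chain, had -0.11 ± 0.11, RPL17 -0.11 ± 0.11 and RPL13 -0.092 ± 0.10. All of these had limma adjusted p-values of at least 0.836. With 1 tumor left out RPS15 ran from -0.20 to -0.090 (without Vehicle 2) and RPL17 from -0.20 (without NMN 2) to -0.070. RPL13 ran from -0.15 to -0.025 (without NMN 2) and RPS23 from -0.16 to -0.019 (without NMN 4).

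The stalk proteins RPLP0, RPLP1 and RPLP2 recruit the translation GTPases to the large subunit. RPLP0, widely used as a reference gene, ran from 2394 to 2640.1 TPM over the 8 tumors with a coefficient of variation of 3.78%, and its estimate was 0.056 ± 0.088. RPLP1 ran from 782 to 931 TPM (0.011 ± 0.086) and RPLP2 from 2120.3 to 2643 TPM (0.043 ± 0.11). RPL4 and RPS2 were, with RPLP0, the steadiest core genes, with coefficients of variation of 3.51% and 4.12%. Their estimates were 0.018 ± 0.080 and 0.0053 ± 0.094. The signs of RPLP0, RPLP2, RPL4 and RPS2 turned under quantile normalization, and that of RPS2 under median-of-ratios scaling.

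Members with known roles in signaling or disease were likewise within the spread. RPS6, the substrate of the S6 kinases downstream of mTORC1, stood at 1541, 1507, 1583 and 1521 TPM in Vehicle and 1550.4, 1774, 1720.2 and 1520.2 TPM in NMN tumors (0.091 ± 0.090, turning sign under quantile normalization). RPS19, the gene most often mutated in Diamond-Blackfan anemia, had 0.017 ± 0.087, and RPS14, lost in a form of myelodysplastic syndrome, -0.012 ± 0.10. RPL13A, a part of the interferon-responsive GAIT complex, had 0.023 ± 0.10. RPS4X, the X-linked form of its subunit protein, had -0.081 ± 0.088. RPS27A, made as a fusion with ubiquitin, had 0.0057 ± 0.093. FAU, which encodes a ribosomal protein behind a ubiquitin-like part and falls outside the symbol rule, had -0.020 ± 0.10. The sign turned under at least 1 other setting for RPS19, RPS14, RPL13A, RPS27A and FAU.

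Core genes varied more between tumors of 1 group than between the groups. The median deviation of core genes from their 8-tumor mean was 0.033, 0.070, -0.042 and -0.11 (log2) in Vehicle tumors 1 to 4 and 0.027, 0.075, 0.020 and -0.064 in NMN tumors 1 to 4. The group means of these medians differed by 0.027, with SDs of 0.058 under NMN and 0.081 under vehicle. Vehicle 2 and NMN 2 were the highest tumors for 25 and 28 of the 77 core genes. Vehicle 4 and NMN 4 were the lowest for 32 and 14, and the highest for 0. RPL34, the most variable core gene with a coefficient of variation of 18.2%, stood at 2028, 2182, 1561 and 1552 TPM in Vehicle and 1915, 2519, 1765 and 1598 TPM in NMN tumors. Its highest and lowest tumors differed by 1.62-fold, and 5 core genes differed by more than 1.5-fold between tumors.

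NMN 2, the tumor with the highest core share, also departed from the others in its pattern over members. The SD of the deviation over core genes was 0.148 (log2) there and 0.074 to 0.103 in the other 7 tumors. RPL36A was at 1759, 1552, 1569 and 1582 TPM in Vehicle and 1485, 2272, 1430.1 and 1484 TPM in NMN tumors. RPL17 was at 1020.1 TPM in NMN 2 against 774 to 791 TPM in the other NMN tumors. In NMN 2 the deviation of core genes had a Spearman rho of -0.49 with transcript GC content across the 77 genes, against -0.12 to 0.22 in the other tumors. Over 3019 other genes with a mean of at least 50 TPM the same rho was -0.40 in NMN 2 and -0.27 to 0.39 elsewhere. The lowest GC tercile of core genes had a median deviation of 0.17 in NMN 2 and the highest 0.0079. The part of base composition in these values was not tested. With coding length, rho ran from -0.38 in Vehicle 1 to 0.42 in Vehicle 3. Without NMN 2, RPL17 and RPS29 had an unadjusted limma p under 0.05 and no member was called.

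The paralogs were far less abundant than the core genes they are named after, apart from RPL36AL. RPL36AL made up 23.0, 22.1, 25 and 23.3% of the TPM of its pair with RPL36A in Vehicle tumors 1 to 4 and 21.9, 20.9, 22.9 and 22.0% in NMN tumors 1 to 4. RPL7L1, which despite its name is the counterpart of a yeast ribosome assembly factor, made up 8.94, 7.89, 10.7 and 10.8% of its pair with RPL7 in Vehicle and 7.28, 6.67, 7.57 and 8.73% in NMN tumors. For both pairs the groups overlapped, although 3 of the 4 NMN tumors were below every Vehicle tumor. The log2 ratio to the core gene differed by -0.12 and -0.37, NMN minus Vehicle. Each had a two-sided exact permutation p of 0.0571, or 0.229 after Benjamini-Hochberg adjustment over the 8 pairs. The smallest p that 4 against 4 tumors allow is 0.0286. No pair passed the threshold.

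RPL7L1 was also the paralog with an unadjusted p under 0.05 for its own level, which no member had without Vehicle 3, without Vehicle 4 or without NMN 1. It stood at 124, 118, 149 and 137 TPM in Vehicle and 106, 100.0, 110.4 and 121 TPM in NMN tumors. The levels averaged 109 ± 9.05 TPM (SD, n = 4) under NMN and 132 ± 13.7 TPM (SD, n = 4) under vehicle, and the groups overlapped. Its log2 fold change was -0.26 ± 0.10 (95% interval -0.49 to -0.039, limma adjusted p = 0.607). Its core gene RPL7, by contrast, had 0.10 ± 0.092. Of the 7 paralogs tested 6 had a lower mean under NMN and RPL39L a higher one, with a median log2 fold change of -0.077. That count rests on 7 genes chosen by name and has no test. The sign turned without NMN 1 for RPL22L1 (0.00059), without Vehicle 1 for RPL26L1 (0.019) and RPS27L (0.038), and without NMN 4 for RPL39L (-0.0043).

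**Figure D4:**
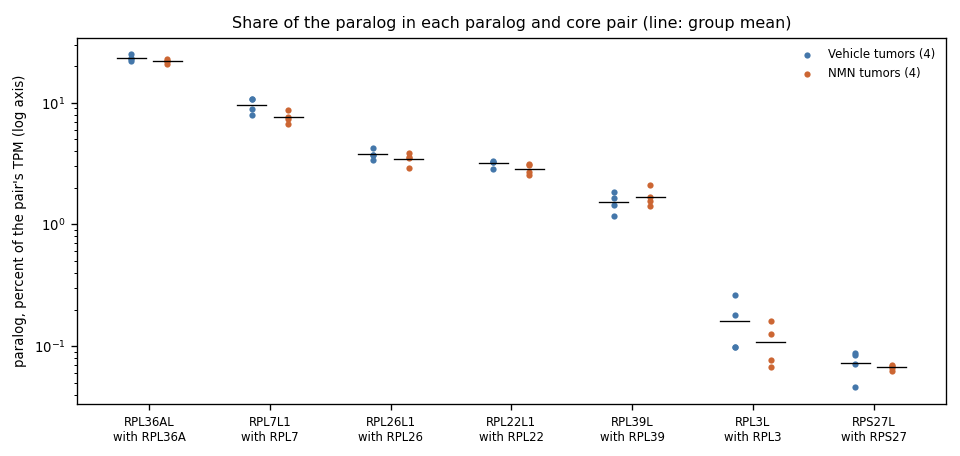
Paralog TPM as a percent of the summed TPM of paralog and core gene (y axis, log scale) for 7 pairs, 1 point per tumor, with a line at the mean of each group of 4. RPL36AL holds the largest share, 21.9% under NMN and 23.4% under vehicle, and the groups overlap in every pair. The pair of RPL10L, listed at 0 in 1 tumor, is not drawn on the log axis.

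The remaining paralogs held small shares. RPL26L1 made up 3.46% of its pair under NMN and 3.78% under vehicle, and RPL22L1 2.86% and 3.19%. RPL39L, best known from the testis, made up 1.69% and 1.53%. RPS27L made up 0.0672% and 0.0724% beside the very abundant RPS27. RPL10L, a testis form on an autosome that replaces X-linked RPL10 in male meiosis, was at 1.87, 0.470, 0 and 0.400 TPM in Vehicle and 0.230, 0.400, 0.470 and 2.09 TPM in NMN tumors, below the filter. Such values lie near the lower end of the scale, and no fold change of its level is given. Adjusted permutation p-values of these pairs were 0.381 or more.

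RPL3L replaces RPL3 in striated muscle and was near the limit of the filter. It stood at 1.33, 1.36, 2.51 and 3.11 TPM in Vehicle and 1.67, 0.960, 1.2 and 2.11 TPM in NMN tumors, with a log2 fold change of -0.29 ± 0.23 (limma adjusted p = 0.919), or -0.13 without Vehicle 4. A list of 23 skeletal muscle markers made up 0.110, 0.0891, 0.326 and 0.0599% of TPM in Vehicle and 0.0111, 0.0107, 0.0111 and 0.0870% in NMN tumors. Of its 21 tested genes 20 had an unadjusted limma p under 0.05, against 6.94% of all genes, and 19 of them were lower under NMN. None was called, the smallest limma adjusted p being 0.226. Vehicle 4 had the highest RPL3L and the lowest muscle share of the Vehicle tumors, and Vehicle 3 had the highest muscle share. In the NMN group, NMN 4 had both the highest RPL3L and the highest muscle share. The part of muscle tissue in the RPL3L values was not tested.

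Reads can be divided between paralog and core transcripts where their sequences coincide. In GENCODE 29 transcripts, windows of 31 bases shared with the core gene made up 7.02% of RPL39L, 4.61% of RPL36AL and 3.20% of RPL10L. The longest shared stretches were 67, 63 and 50 bases. The other 5 paralogs shared no window of that length, their longest shared stretch being 11 to 26 bases. A read-through of RPL36A into HNRNPH2 is listed as a gene of its own, at 49.7 TPM in NMN 2 and 17.9 to 54.0 TPM over all tumors. Reads of RPL36A may be divided with it.

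Genes that build and regulate ribosomes were examined beside the core proteins, from lists chosen by function. No gene of these lists was called by limma. Of 73 ribosome assembly factors, 63 had a lower mean under NMN, where 49% of all genes were lower, and their median log2 fold change was -0.11. The count of lower genes stayed between 59 and 71 over the 19 settings tried, and the median moved to -0.18 without NMN 4. Unadjusted p-values under 0.05 were found for 4 of the 73, RRP36, WDR74, NOB1 and DDX56, a smaller share than the 6.94% of all genes, and all were lower. RRP36, needed for early cleavage of the ribosomal RNA precursor, stood at 108, 118, 127 and 134 TPM in Vehicle and 102, 91.0, 98.4 and 103 TPM in NMN tumors. Every NMN tumor was below every Vehicle tumor, as for DDX56, and these 2 of 73 are a smaller share than the 3.05% of all genes whose groups did not overlap. The RRP36 log2 fold change was -0.30 ± 0.10 (limma adjusted p = 0.449). NOB1, the nuclease of the last cleavage of small-subunit RNA, had -0.31 ± 0.11, WDR74 -0.32 ± 0.11 and the helicase DDX56 -0.26 ± 0.10. Whether the assembly factors differ from the core proteins was not tested.

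By tumor, the median deviation of the assembly factors was 0.012, -0.040, 0.10 and 0.18 (log2) in Vehicle tumors 1 to 4 and -0.069, -0.14, -0.16 and 0.15 in NMN tumors 1 to 4. NMN 4 was the second highest of the 8 tumors, and the groups overlapped. The assembly factors were high in Vehicle 4 and NMN 4, the same tumors in which core proteins were low, and the 8 points share libraries and a fixed TPM total. Within the NMN group, NMN 4 also had the highest share of skeletal muscle markers, given above, and of fibroblast markers, which took 0.0185, 0.0211, 0.0269 and 0.0282% of TPM in Vehicle tumors 1 to 4 and 0.0116, 0.0125, 0.0161 and 0.0229% in NMN tumors 1 to 4. Their part in the assembly factor values was not tested. The median deviation of all tested genes was 0.13 in NMN 4 and -0.11 in both Vehicle 2 and NMN 2.

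**Figure D5:**
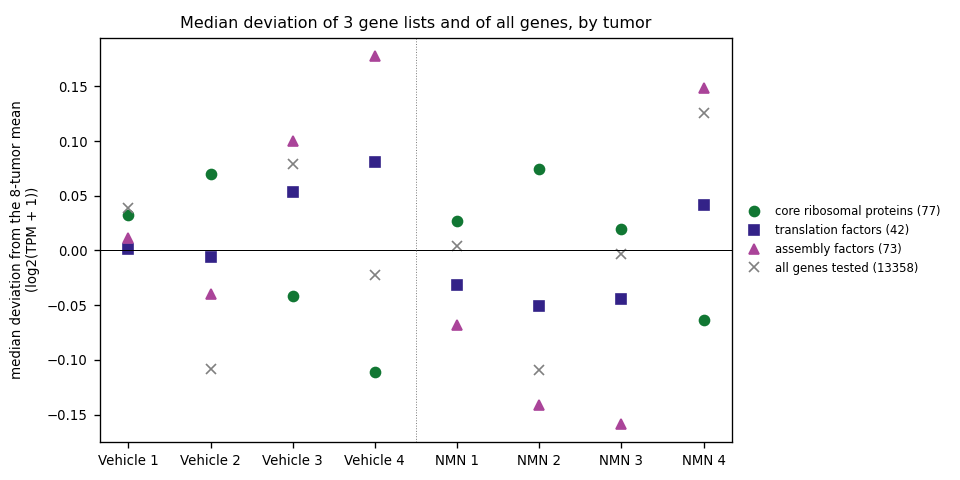
Median deviation from the 8-tumor mean (y axis, log2(TPM + 1)) of core ribosomal proteins, translation factors, assembly factors and all genes tested in each tumor, with Vehicle tumors left and NMN tumors right of the dotted line. Core proteins are lowest in Vehicle 4 (-0.11) and NMN 4 (-0.064), where the assembly factors are highest (0.18 and 0.15).

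Of 42 translation factors 13 were higher and 29 lower under NMN, with a median of -0.043 that ran from -0.013 (without Vehicle 4) to -0.084 (without Vehicle 2) with single tumors left out. The 1 of 42 with an unadjusted p under 0.05, against 6.94% of all genes, was EEF1A2, the elongation factor form of muscle and neurons, with 0.35 ± 0.14 (limma adjusted p = 0.618). EIF3H was the 1 of 42 whose groups did not overlap, against 3.05% of all genes, NMN above (0.21 ± 0.11, and 0.11 without Vehicle 4). Of 10 chaperones dedicated to ribosomal proteins 8 were lower, with a median of -0.069, the lowest being GRWD1 at -0.34 ± 0.17. Of 15 RNA polymerase I genes, which transcribe ribosomal RNA, 9 were lower (median -0.040). Of 20 mTORC1 and MYC regulators 12 were lower (median -0.040). In that list 3 of 20, MXI1, MXD1 and RHEB, had unadjusted p-values under 0.05, against 6.94% of all genes. They were higher under NMN, as were 640 of the 927 such genes in all, at 0.37 ± 0.13, 0.47 ± 0.21 and 0.31 ± 0.13. MXI1 and MXD1 are antagonists of MYC at its partner MAX, and RHEB is the GTPase that activates mTORC1. All 3 had limma adjusted p-values of at least 0.545.

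All 9 epithelial markers passed the filter, and together they took 0.936 to 1.94% of TPM in Vehicle and 1.04 to 1.29% in NMN tumors. KRT5 ran from 2817 to 6488 TPM, with a lower mean under NMN (-0.37 ± 0.20). KRT8 (1.07 ± 0.21), EPCAM (0.43 ± 0.16) and KRT18 (0.33 ± 0.14) had unadjusted limma p-values under 0.05. These 3 of 9 were higher under NMN, beside 6.94% of all genes with such p-values. The groups of KRT8 did not overlap (265 to 542 TPM in Vehicle and 707 to 909 TPM in NMN tumors). It was the 1 of 9 without overlap, against 3.05% of all genes. Of the 9 markers 4 were higher and 5 lower under NMN, with a median log2 fold change of -0.031. The lower ones were KRT5, CDH1, EGFR, KRT14 and KRT6B, and none of the 9 was called. PGR ran from 0 to 0.020 TPM and ESR1 from 3.37 to 6.00 TPM, while ERBB2 ran from 77.6 to 130.0 TPM. Of 6 fibroblast markers DCN, LUM and PDGFRA were under the filter. The other 3 each had an unadjusted limma p under 0.05, against 6.94% of all genes, and were lower under NMN. Their smallest limma adjusted p was 0.471. Of 4 endothelial markers KDR alone passed the filter. It stood at 1.05 to 2.60 TPM in Vehicle and 2.92 to 5.26 TPM in NMN tumors, without overlap, against 3.05% of all genes. TEK, under the filter, did not overlap either, but in the other direction. Its range was 0.31 to 0.54 TPM in Vehicle and 0.06 to 0.24 TPM in NMN tumors. PECAM1 and CDH5, also under the filter, overlapped. Of 5 myeloid markers PTPRC was under the filter, and CD68, CSF1R, ITGAM and LYZ passed it, CD68 at 21.4 to 63.7 TPM. PTPRC stood at 0.27 to 0.39 TPM in Vehicle and 0.13 to 0.21 TPM in NMN tumors, without overlap. Of the 4 tested, CD68 was higher under NMN and 3 were lower, with overlapping groups. The part of these cell types in the members' values was not tested. Ribosomal proteins are conserved in sequence, and the sources used here do not say how mouse reads were treated, so host RNA may be part of any member's value. The MTRNR2L genes, which resemble mitochondrial ribosomal RNA, took 4.73, 4.60, 6.22 and 5.45% of TPM in Vehicle and 2.99, 4.48, 3.05 and 3.21% in NMN tumors, the groups not overlapping.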

How the data were processed

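RNA from 8 tumors was sequenced after depletion of ribosomal RNA and oligo(dT) selection, per the labels' protocols. The authors deposited TPM per gene, per the file headers, in a single table. Each library sums to 1000000 and its depth is unknown, so no counting interval is given. RSEM 1.2.8, HISAT2 2.1.0 and Bowtie2 2.2.5 are named in the submitters' processing notes, with no step assigned to each. Strandedness and any sequencing batch are not given in the sources used here.

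Genes with TPM of at least 1 in at least 4 tumors (13358) were tested on log2(TPM + 1) with limma 3.58.1 (R 4.3.3), using a mean-variance trend, group as the only term, two-sided, Benjamini-Hochberg adjustment over all genes and a threshold of 0.05. Fold changes are NMN over Vehicle ± standard error, and understate changes of low genes. Paralog shares were compared on log2((paralog TPM + 0.1)/(core TPM + 0.1)). The limma step was tested on simulated data. Gene positions, coding lengths, transcript sequences and pseudogene names came from GENCODE 29, and promoter windows from RefSeq.

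Genes named are all paralogs with their core genes, a fixed set of stalk, signaling and disease members, the 4 highest and 4 lowest levels, the 3 highest and 3 lowest fold changes per subunit, the 3 most and 3 least variable members, up to 3 genes of smallest p per other list, and genes on which a count of 5 or fewer turns. A few genes under this rule are not reported here. The members and lists were chosen with earlier results of these data known. Alternatives covered the pseudocount, filter, scaling, variance model, library weights, replicate block and single tumors left out.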

Additional observations from a re-analysis of the deposited data

Results flagged for a closer look

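Among 142 groups of 4 tumors examined for named genes and paralog shares, 12 had 1 tumor far from the other 3, the gap to the nearest exceeding Dixon's 95% critical value for 4 samples. Chance alone gives about 1 in 20, or 7.1 groups.

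In NMN 2, RPL36A stood at 2272 TPM (other NMN tumors 1430.1 to 1485 TPM), RPL36AL at 599 TPM (416 to 424 TPM) and RPL17 at 1020.1 TPM (774 to 791 TPM). These 3 genes are listed because the rule flagged this tumor, so their being highest there within the NMN group adds nothing further. RPSA was high in NMN 1, at 1574 TPM against 1263 to 1302 TPM, and RHEB was low there, at 109 TPM against 132 to 133 TPM. RPL10L reached 2.09 TPM in NMN 4 against 0.23 to 0.47 TPM in the other NMN tumors, and its share of the pair with RPL10 was 0.310% against 0.0358 to 0.0762%.

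In Vehicle 4, RPL8 stood at 5276 TPM against 6393 to 6456 TPM in the other Vehicle tumors, and EIF3H at 139 TPM against 183 to 187 TPM. In Vehicle 1, RPL36A stood at 1759 TPM against 1552 to 1582 TPM and RPL26L1 at 158 TPM against 126 to 131 TPM, while RPL22L1 made up 2.86% of its pair against 3.27 to 3.34%. None of these genes was called between NMN and Vehicle tumors by limma.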

How the results depend on the processing

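No ribosomal protein gene was called by limma under any of the 19 settings, the smallest adjusted p of a member being 0.253. Over all genes the count of calls was 54 with library weights and 2 with the replicate block, against 0 otherwise, and 0 to 53 with single tumors left out (53 without NMN 4 and 1 without Vehicle 3). Over all genes tested, same-numbered tumors had correlated deviations of -0.12 to 0.026, so the numbers were not taken to pair the samples. The core share, however, ranked tumors 2, 1, 3 and 4 from high to low in both groups. Whether the numbers mark a pair or a batch is not given and was not tested. With the replicate block the smallest limma adjusted p of a core gene was 0.746, and no other call changed. The difference in core share ran from -0.019 to 0.711 points, the core median from -0.013 to 0.060, and calls among members stayed at 0 with single tumors left out.

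Signs turned for 22 of 58 named genes, the largest such value being 0.138 in size. Under quantile normalization the log2 fold change was -0.040 for RPL13A, -0.071 for RPL36A, -0.0041 for RPL4, -0.018 for RPLP0, -0.020 for RPLP2, -0.015 for RPS2, -0.0022 for RPS27A and -0.0013 for RPS6. Under median-of-ratios scaling it was -0.0057 for RPS2 and -0.0054 for RPS27A. With library weights it was 0.025 for FAU, -0.0062 for RPL22, -0.075 for RPL36A and 0.051 for RPS14. The cause was not tested.

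With single tumors left out, these log2 fold changes crossed 0: FAU (-0.060 to 0.020), RPL11 (-0.064 to 0.016), RPL13A (-0.026 to 0.084), RPL22L1 (-0.12 to 0.00059), RPL26 (-0.025 to 0.14), RPL26L1 (-0.091 to 0.019), RPL34 (-0.045 to 0.18), RPL36A (-0.14 to 0.085), RPL37A (-0.029 to 0.062), RPL39L (-0.0043 to 0.17), RPL4 (-0.013 to 0.037), RPLP1 (-0.040 to 0.044), RPLP2 (-0.0066 to 0.10), RPS14 (-0.067 to 0.050), RPS19 (-0.020 to 0.053), RPS2 (-0.017 to 0.041), RPS27 (-0.098 to 0.081), RPS27A (-0.048 to 0.055) and RPS27L (-0.16 to 0.038). So did the differences, NMN minus Vehicle, in the log2 ratio to the core gene for RPL10L (-0.15 to 1.23) and RPS27L (-0.27 to 0.043). With all tumors, the RPL10L difference depended on the pseudocount. It was 0.53 with 0.1, 0.17 with 1 and 1.25 with 0.01.

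At an unadjusted p under 0.05, core genes were found with library weights (RPS29 and RPSA), under quantile normalization (RPS15) and without NMN 2 (RPL17 and RPS29). RPL7L1 was not among such genes without Vehicle 3, without Vehicle 4 or without NMN 1. Of the 77 core intervals 76 lay within 1.5-fold under median-of-ratios scaling, with library weights and without NMN 2. With 4 tumors a group and unknown depth, differences smaller than these intervals were not detectable.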
